A study of Mus musculus with 17 samples.

Results

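The 10 genes described here are the simple epithelial keratins Krt8, Krt18, Krt19 and Krt7 and 6 genes used as markers of the transitional alveolar epithelial state, Sfn, Lgals3, Ndrg1, Sprr1a, Tnfrsf12a and Plaur. They were chosen by symbol, each symbol matched 1 row of the 2 deposited count tables, and they are 10 of 43430 gene identifiers. The series holds 17 RNA-seq libraries, all of alveolar type 2 (AT2) cells, which make surfactant, sorted from the lungs of C57BL/6J mice aged 2 months. In the first experiment, 4 libraries came from naive mice given vehicle and 4 from naive mice given ISRIB, a small molecule that lifts the block on translation imposed by the integrated stress response, with cells sorted 24 h later and poly(A) libraries made from 3 ng of RNA. In the second, total-RNA libraries were made from 0.35 ng, 4 of them from naive mice and 5 from mice given bleomycin, a drug that injures the lung, 14 days earlier. The titles of the vehicle libraries and of all 9 total-RNA libraries say saline, and the labels used here give no dose. Kit, input and depth all differed between the experiments, so each was analysed by itself. Nothing in the labels says that the libraries of a group came from separate mice, so the p-values below measure the spread between these libraries, which may be technical.

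Keratins are the intermediate filament proteins of epithelia, and a filament is built from pairs of a type I chain with a type II chain. Krt8 and Krt7 encode type II chains and Krt18 and Krt19 type I chains, and these are the keratins of simple, single-layered epithelia such as the alveolar lining. After lung injury some AT2 cells pass through an intermediate state on the way to the flat type 1 cell of the gas exchange surface, and strong Krt8 expression is the best known mark of that state in mouse lung.

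The libraries carried the defining RNA of AT2 cells. The 8 AT2 markers together took 171400 to 183700 CPM in the poly(A) set, where CPM is the read count of a gene after every library is brought to one TMM-adjusted size. In the total-RNA set they took 78620 to 85840 CPM in the naive and 48400 to 86030 CPM in the bleomycin libraries, lowest in bleomycin 1 and 2. Among them Etv5 was called lower by edgeR after bleomycin (-0.43, adjusted p 0.0199) and after ISRIB (-0.28, 0.00817), and Sftpd higher after bleomycin (0.58, 0.0133). Library totals were 10493574 to 15727139 counts in the poly(A) set and 3295257 to 6333166 counts in the total-RNA set. Groups were compared with the quasi-likelihood test of edgeR over 12054 genes (ISRIB) and 11223 genes (bleomycin), and a gene was called at a Benjamini-Hochberg adjusted p under 0.05 over all genes tested. Replicates varied less in the ISRIB comparison, with a common biological coefficient of variation of 7.66%, than after bleomycin, at 21.1%. In simulated data with log2 fold changes of 0.5, the procedure recovered 65% of changed genes at the ISRIB design and 1.54% at the bleomycin design. For log2 fold changes of 1 the shares were 93.5% and 67.6%. At the bleomycin design the simulation with 0.5 held 195 changed genes, far fewer than the 2304 called in the real comparison. With so few changed genes the adjusted threshold was stricter than in the real data. The bleomycin shares therefore do not carry over to the calls below.

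Some markers of other cell types moved with bleomycin. The 9 fibroblast markers summed to 4.47 to 11.7 CPM in the naive and 17.5 to 115 CPM in the bleomycin libraries. Lum was at 0 in all 9 libraries, and the 3 markers tested, Col1a1, Col1a2 and Col3a1, were called higher. Their lowest naive values were 0.30, 0 and 1.19 CPM, so they passed the filter through the bleomycin libraries. These calls thus add no evidence to the sum. Below the filter, Dcn stood at 0.26 to 4.87 CPM after bleomycin, against at most 0.21 CPM in the naive libraries. The nearest values of these groups thus lay near the floor. Inmt ran from 0.60 to 1.68 CPM in the naive and from 0 to 0.79 CPM in the bleomycin libraries. Tcf21 had no count after bleomycin, and Pdgfra and Pdgfrb overlapped. Bleomycin 2 held the highest fibroblast sum and bleomycin 1 the next at 55.3 CPM. The 10 alveolar type 1 markers summed to 1396 to 1621 CPM in the naive and 2126 to 2645 CPM in the bleomycin libraries. Calls numbered 7 higher and 0 lower of 9 tested, beside 11.2% and 9.31% of all genes tested. Among the 7, Pdpn was at 0.34 to 2.38 CPM in the naive libraries and passed the filter through the bleomycin libraries. The 12 macrophage and monocyte markers without Lyz2, which AT2 cells also express, summed to 17.3 to 29.5 CPM in the naive and 40.9 to 73.3 CPM in the bleomycin libraries. Cd14 was the single call among 4 tested and made up most of this sum, at 10.04 to 18.45 and 35.6 to 63.0 CPM. In the vehicle poly(A) libraries Cd14 stood at 64.18 to 87.55 CPM. Since kit, input and depth differ, that level cannot be set against those of the total-RNA set. Adgre1, Itgax, Marco, C1qa and C1qb had no count after bleomycin. Fabp4 went from 0.60 to 2.01 CPM in the naive to 0 to 0.54 CPM in the bleomycin libraries. The 12 airway markers summed to 495 to 975 CPM in the naive and 580 to 1039 CPM in the bleomycin libraries, ranges that overlap. Of 9 tested, 2 were called higher and 0 lower, beside 11.2% and 9.31% of all genes tested. These were the ciliated cell genes Foxj1 and Ccdc39. Their lowest naive values were 2.09 and 1.49 CPM, and they too passed the filter through the bleomycin libraries. The ciliated cell genes Dynlrb2 (0.17, edgeR adjusted p 0.83) and Tppp3 (0.41, 0.122) gave no call, and neither did Scgb1a1 (-0.17, 0.61). The 8 endothelial markers summed to 19.4 to 29.9 and 20.4 to 76.7 CPM. Of 5 tested, 2 were called higher and 0 lower, beside the same shares of all genes. Cdh5, 1 of these, had a lowest naive value of 1.19 CPM and passed the filter through the bleomycin libraries. The 5 mesothelial markers summed to 0.30 to 7.38 and 3.44 to 22.9 CPM (1 of 1 called higher). That gene, Msln, was at most 1.71 CPM in the naive libraries and likewise passed the filter through the bleomycin libraries. Neutrophil and lymphocyte markers stayed at or below 1.81 CPM in every library of both sets. In the poly(A) set the airway sum was 3951 to 4385 CPM after vehicle and 2458 to 4293 CPM after ISRIB, with ISRIB 4 lowest, and Tppp3 was the single airway gene called lower. Of 5 macrophage and monocyte markers tested there, Chil3 was called lower (edgeR adjusted p 0.044). It stood at 0.96 to 1.55 CPM after vehicle and 0.088 to 0.72 CPM after ISRIB, and passed the filter through the vehicle libraries. The part of these cells in the results below was not tested. In sorted bulk samples, fewer cells of a type and less RNA per cell cannot be told apart.

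In GENCODE M21 (GRCm38, coordinates counted from 1), Krt8 lies on chromosome 15 from 101996698 to 102004482 on the minus strand and Krt18 on the same chromosome from 102028180 to 102032027 on the plus strand. These 2 genes, whose proteins pair in the filament, thus start back to back, with 23697 bases and no whole gene model between them. Krt7 lies on chromosome 15 as well, from 101411043 to 101430313 on the plus strand, and Krt19 on chromosome 11 from 100140810 to 100148665 on the minus strand. Among the other genes, Sprr1a is on chromosome 3 (92483952 to 92485895), Sfn on chromosome 4 (133600556 to 133602168), Lgals3 on chromosome 14 (47367751 to 47386160) and Ndrg1 on chromosome 15 (66929318 to 66969640). Tnfrsf12a is on chromosome 17 (23675445 to 23677468) and Plaur on chromosome 7 (24462484 to 24475968).

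The sequence upstream of the RefSeq start was found for 8 of the 10 genes, as windows of 250 bases in GRCm38.p6; Krt19 and Ndrg1 had none. The windows were searched on both strands for TGANTCA (the AP-1 motif), TATAAA (the TATA box) and GGGCGG (the GC box), with overlapping matches counted. Of 32851 windows of the same length, 6.75% held an AP-1 match and 0.338% held 2 or more, 12.4% a TATA match and 32.7% a GC box match. Sprr1a and Plaur are shown because they were the members with an AP-1 match, and Krt8 and Krt18 because they form the divergent keratin pair. Each stretch runs 5′ to 3′ toward the gene, is limited to bases outside GENCODE exons, and has any match in capitals.
Sprr1a (chr3:92485896-92486131, minus strand): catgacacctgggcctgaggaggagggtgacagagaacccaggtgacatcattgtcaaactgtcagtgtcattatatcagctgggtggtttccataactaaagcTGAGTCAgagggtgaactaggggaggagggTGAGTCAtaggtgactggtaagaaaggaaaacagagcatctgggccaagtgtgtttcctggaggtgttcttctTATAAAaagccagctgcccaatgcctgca
Plaur (chr7:24462233-24462482, plus strand): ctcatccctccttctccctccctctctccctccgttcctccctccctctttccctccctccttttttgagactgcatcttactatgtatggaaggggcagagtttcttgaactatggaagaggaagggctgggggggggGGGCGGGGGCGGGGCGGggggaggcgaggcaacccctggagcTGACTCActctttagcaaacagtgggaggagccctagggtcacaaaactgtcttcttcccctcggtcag
Krt8 (chr15:102004483-102004592, minus strand): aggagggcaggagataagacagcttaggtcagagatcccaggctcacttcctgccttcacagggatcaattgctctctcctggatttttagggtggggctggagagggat
Krt18 (chr15:102027966-102028179, plus strand): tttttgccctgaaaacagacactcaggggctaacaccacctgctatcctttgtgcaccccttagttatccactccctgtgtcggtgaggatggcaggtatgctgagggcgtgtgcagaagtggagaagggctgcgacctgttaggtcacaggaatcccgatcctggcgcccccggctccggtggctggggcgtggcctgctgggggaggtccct

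Sprr1a held an AP-1 match at bases 146 to 140 and another at 116 to 110 before its start, and a TATA match at 43 to 38. Plaur held 1 AP-1 match, at 69 to 63, and 3 GC box matches, of which the 2 nearest the gene share a base. The windows of Krt8 and Krt18 held none of these 3 motifs, and neither did that of Sfn. Krt7 had 4 GC box matches, Tnfrsf12a 5 and Lgals3 1. A match here is a run of letters, and nothing in these data measured binding.

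Per kilobase of the principal transcript, a scale on which different genes can be compared, the filament pair stood above the rest in every group. Krt18 had a mean level of 125.9 ± 12.1 CPM per kilobase after vehicle, 109 ± 6.87 after ISRIB, 99.7 ± 13.9 in naive total RNA (SD, n = 4 each) and 176 ± 24.8 after bleomycin (n = 5). The levels of Krt8 were 104 ± 10.3, 86.7 ± 8.99, 79.5 ± 9.31 and 172 ± 22.6 CPM per kilobase in the same groups. The library ranges of Krt18 and Krt8 overlapped in the naive and bleomycin groups and did not in the vehicle and ISRIB groups. The next level lay well below, at 37.4 ± 4.51 CPM per kilobase for Krt19 after vehicle, next to 37.2 ± 4.48 for Lgals3, and these neighbours overlapped. In the naive total-RNA libraries Krt7, Sfn, Lgals3 and Krt19 followed at 19.4 to 21.3 CPM per kilobase on average, with ranges that overlapped between neighbours. Their order depends on the length used. Per kilobase of all exons they stood at 12.4 (Krt7), 20.85 (Sfn), 15.6 (Lgals3) and 16.5 (Krt19). On that scale Sfn, at 43.15, was also above Krt7, at 30.2, after bleomycin. After bleomycin Krt19 came next at 60.4 ± 13.5 CPM per kilobase (44.4 to 76.4), overlapping Krt7 at 37.4 to 66.8. Ndrg1 and Plaur were the lowest in all 4 groups, at 1.09 to 3.34 and 0.21 to 1.19 CPM per kilobase on average.

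**Figure D1:**
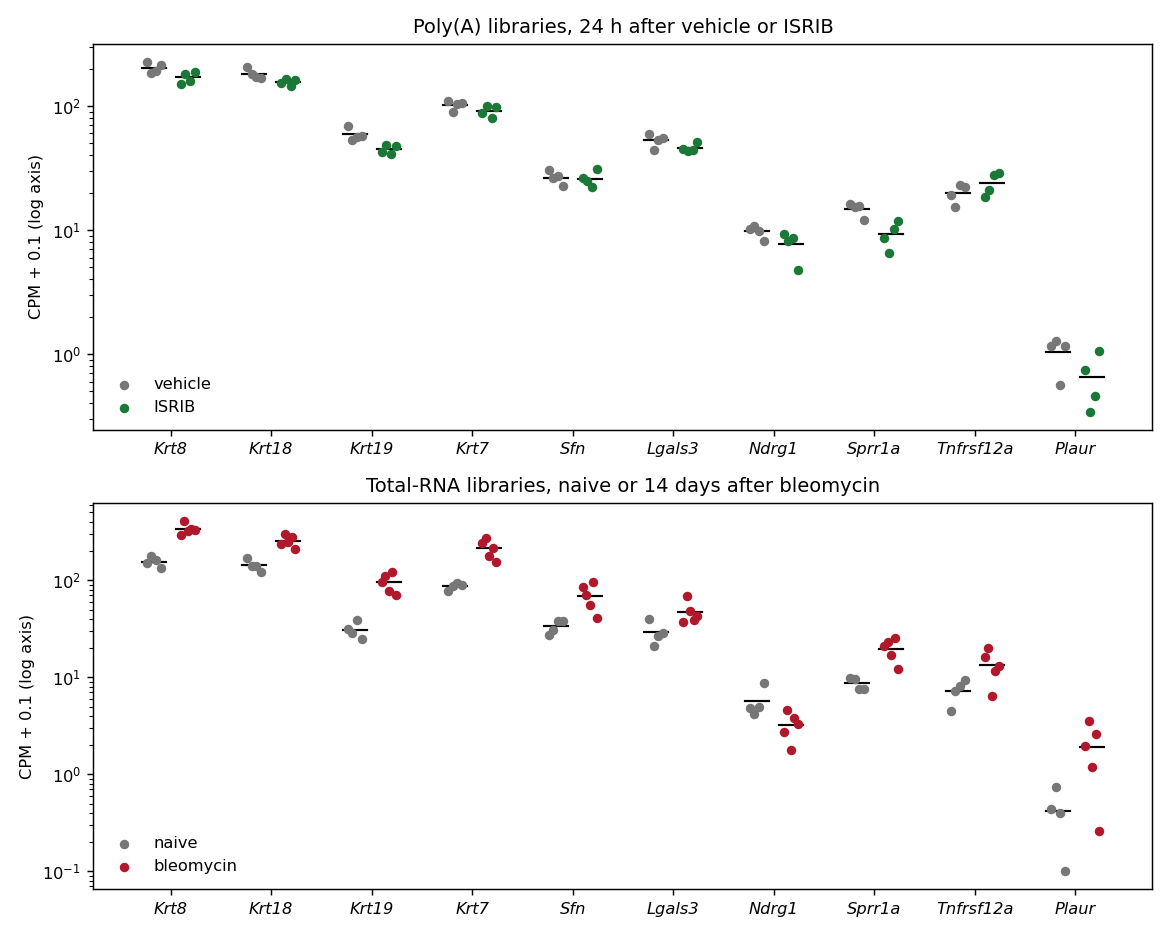
Level of each gene in CPM plus 0.1 on a log axis, 1 point per library and a bar at the group mean, for the poly(A) set (top, 4 vehicle and 4 ISRIB libraries) and the total-RNA set (bottom, 4 naive and 5 bleomycin libraries). After bleomycin the points of Krt8, Krt18, Krt19, Krt7, Sfn and Sprr1a all lie above the naive points, and after ISRIB those of Krt18, Krt19 and Sprr1a all lie below the vehicle points.

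The comparison of bleomycin with naive mice addressed how the AT2 transcriptome differs 14 days after lung injury. All 4 keratins rose, by 1.77-fold (Krt18) to 3.10-fold (Krt19), and so did Sfn, Lgals3 and Sprr1a. Of the 10 genes 9 were tested; 7 were called higher and 0 lower, against 11.2% of all genes tested called higher and 9.31% called lower. At an unadjusted edgeR p under 0.05 the counts were 8 and 0, DESeq2 called 8 higher and 0 lower, and limma-voom 7 and 0. The groups did not overlap for 6 of the 9, all with the bleomycin libraries higher, as for 10.4% of all genes tested, while 9.35% of all genes lay wholly lower. The median log2 fold change of the 9 was 1.04, beside 0.00 for all genes tested. Each bleomycin library had 8 or 9 of the 10 genes above the naive mean, with a median log2 difference from that mean of 0.57 in bleomycin 5 to 1.39 in bleomycin 2.

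Krt8 stood at 150.3, 178, 161 and 134 CPM in naive 1 to 4 and at 291, 411, 323, 334 and 328 CPM in bleomycin 1 to 5. Every bleomycin library was above every naive library, and bleomycin 2 was the highest. The means were 156 ± 18.2 and 337 ± 44.3 CPM (SD, n = 4 and 5), so the log2 fold change was 1.11 (SE 0.13, edgeR adjusted p 7.33e-06).

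Its partner Krt18 stood at 170.4, 141, 139 and 122 CPM in the naive and at 234, 298, 246, 281 and 209.5 CPM in the bleomycin libraries. The groups were again apart, with naive 1 and bleomycin 5 the closest libraries across them. Krt18 rose by 0.82 on the log2 scale (SE 0.13, edgeR adjusted p 0.000219), the smallest change among the 4 keratins.

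Krt19, a short type I keratin that lacks most of the tail domain, had the lowest naive CPM of the 4. It stood at 31.2, 28.2, 38.7 and 24.4 CPM in the naive and at 96.5, 111, 78.0, 120.4 and 70.0 CPM in the bleomycin libraries. Every bleomycin library was above every naive one, with bleomycin 5 lowest and bleomycin 4 highest. The means were 30.6 ± 6.06 and 95.2 ± 21.3 CPM, a log2 fold change of 1.63 (SE 0.18, edgeR adjusted p 4.82e-06).

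Krt7, the second type II chain, stood at 77.5, 87.8, 94.3 and 88.8 CPM in the naive and at 245, 274, 176, 217 and 153 CPM in the bleomycin libraries. The groups did not overlap, and bleomycin 3 and 5 were the lowest of their group. Krt7 rose from 87.1 ± 7.01 to 213 ± 49.1 CPM, by 1.29 on the log2 scale (SE 0.15, edgeR adjusted p 1.4e-05).

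Sfn encodes 14-3-3 sigma, a phosphoprotein-binding adaptor of epithelia that is induced by p53 and holds back the cell cycle. It stood at 27.5, 30.8, 38.1 and 38.2 CPM in the naive and at 85.7, 69.7, 55.8, 95.9 and 41.0 CPM in the bleomycin libraries. Bleomycin 5 was only just above the highest naive libraries, and the groups did not overlap. The log2 fold change was 1.04 (SE 0.21, edgeR adjusted p 0.00174).

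Lgals3 encodes galectin-3, a lectin that binds beta-galactoside sugars and that AT2 cells and macrophages both make. It stood at 39.9, 20.9, 26.7 and 28.6 CPM in the naive and at 36.8, 68.0, 47.7, 39.3 and 42.9 CPM in the bleomycin libraries. These groups overlapped, since naive 1 was above bleomycin 1 and 4. Lgals3 was called higher by 0.71 (SE 0.20, edgeR adjusted p 0.0181), and the call was lost without naive 2 (0.0811), naive 3 (0.058) or naive 4 (0.0551).

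Sprr1a encodes a small proline-rich protein that is cross-linked into the cornified envelope of stratified epithelia. It stood at 9.73, 9.61, 7.51 and 7.45 CPM in the naive and at 20.9, 22.9, 16.7, 25.1 and 12.04 CPM in the bleomycin libraries. All bleomycin libraries were higher, with bleomycin 5 again lowest of its group. The log2 fold change was 1.17 (SE 0.25, edgeR adjusted p 0.00266).

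Neither receptor gene gave a call. Tnfrsf12a encodes Fn14, the receptor for the cytokine TWEAK, and stood at 4.36, 7.05, 8.11 and 9.24 CPM in the naive and at 16.1, 20.03, 6.35, 11.4 and 12.8 CPM in the bleomycin libraries. All bleomycin libraries except bleomycin 3 were above the highest naive library. Its change of 0.88 in log2 (SE 0.32) missed the threshold with an edgeR adjusted p of 0.0608, and it passed without a filter on low counts (0.032), with DESeq2 (0.048) and without bleomycin 3 (0.0155).

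Plaur encodes the urokinase receptor, which gathers the protease urokinase at the cell surface. It fell below the filter in the total-RNA set, with 1, 3, 1 and 0 counts in the naive and 7, 19, 7, 8 and 1 counts in the bleomycin libraries. Bleomycin 5 held no more Plaur counts than naive 1 or 3. With no filter its edgeR adjusted p was 0.14, so a difference was not detectable at this depth.

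Ndrg1, a gene induced by hypoxia and cell stress, was the 1 member with a negative log2 fold change. It stood at 4.70, 4.06, 4.80 and 8.64 CPM in the naive and at 2.65, 4.51, 1.70, 3.71 and 3.17 CPM in the bleomycin libraries. The groups overlapped at bleomycin 2, and naive 4 was far above the other naive libraries. With 78 counts in each group in all, the log2 fold change of -0.82 (SE 0.42) had an edgeR adjusted p of 0.186. Exons of Ndrg1 overlap the opposite-strand models Gm2895 and Gm17035 over 2.08% and 6.35% of their length, and those of Krt8 (Gm36026, 5.16%) and Krt7 (Gm671, 1.09%) do so too. No source used here gives the strand setting, so reads of these partners cannot be told apart. Krt8 has a processed pseudogene copy, Krt8-ps on chromosome 7, with 98.6% identity over 941 bases, and Sfn has one in Gm7850 on chromosome 8, with 97.5% identity over 712 bases; their counts are uncertain to that extent.

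**Figure D2:**
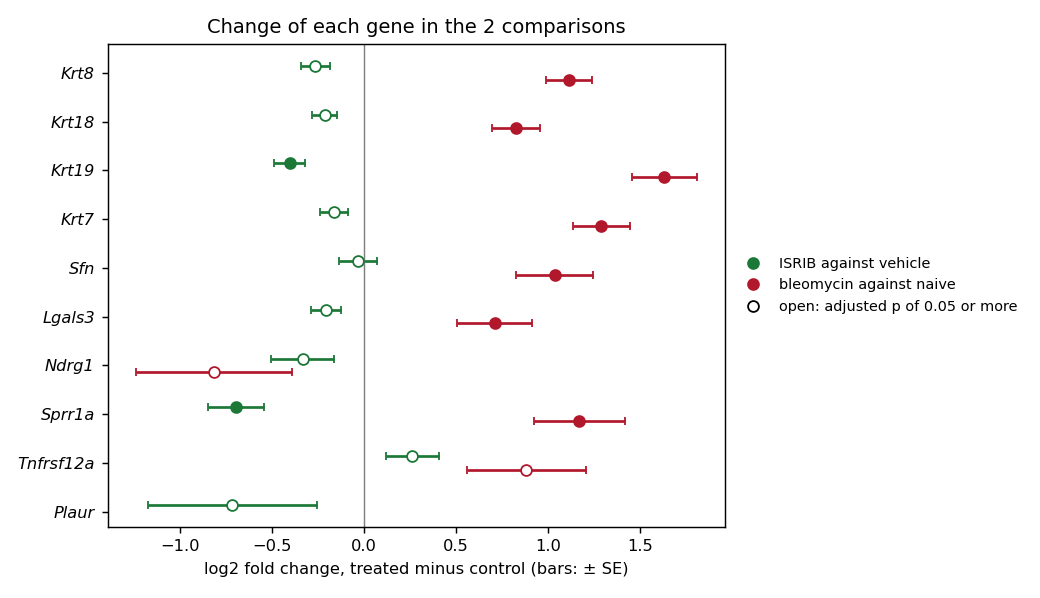
Log2 fold change of each gene with its standard error, for ISRIB against vehicle (green) and bleomycin against naive (red), filled where the edgeR adjusted p was under 0.05. In red, 7 points are filled and lie to the right of 0, and in green the 2 filled points, Krt19 and Sprr1a, lie to the left.

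The comparison of ISRIB with vehicle addressed what 24 h of the drug changed in AT2 cells of uninjured mice. Krt19 and Sprr1a fell, to 0.76 and 0.62 of the vehicle level, and the other 8 genes gave no call. All 10 genes were tested; 0 were called higher and 2 lower, against 1.1% of all genes tested called higher and 1.1% called lower. At an unadjusted edgeR p under 0.05 there were 0 higher and 6 lower, DESeq2 called 0 higher and 3 lower, and limma-voom 0 and 2. The count of members fell to 0 without vehicle 1 and to 1 without vehicle 2, vehicle 3, ISRIB 1 or ISRIB 3. For 3 of the 10 the ISRIB libraries lay wholly below the vehicle libraries, as for 4.39% of all genes tested, and for 0 wholly above, as for 4.26%. The log2 fold change was negative for 9 of the 10, with a median of -0.24 beside 0.00 for all genes tested.

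Krt19 stood at 69.3, 53.1, 56.6 and 57.0 CPM in vehicle 1 to 4 and at 42.3, 48.3, 40.9 and 47.1 CPM in ISRIB 1 to 4. The groups did not overlap, and vehicle 1 was the highest library. The means were 59.0 ± 7.11 and 44.7 ± 3.60 CPM (SD, n = 4 each), and the log2 fold change was -0.40 (SE 0.08, edgeR adjusted p 0.017). The call was lost without vehicle 1 (log2 fold change -0.32, adjusted p 0.0607) or ISRIB 3 (-0.36, 0.0519).

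Sprr1a stood at 16.1, 15.2, 15.6 and 11.9 CPM after vehicle and at 8.49, 6.41, 10.02 and 11.8 CPM after ISRIB. All ISRIB libraries were lower, but vehicle 4 and ISRIB 4 nearly met. It fell by 0.70 on the log2 scale (SE 0.15, edgeR adjusted p 0.0241). Leaving out any of 4 libraries ended this call, namely vehicle 1 (0.0823), vehicle 2 (0.0713), vehicle 3 (0.0573) or ISRIB 1 (0.0579), with the log2 fold change between -0.65 and -0.68.

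Krt18 stood at 206, 180.0, 170.0 and 168 CPM after vehicle and at 152, 166, 144 and 162 CPM after ISRIB. The groups did not overlap, yet the log2 fold change of -0.21 (SE 0.07) had an edgeR adjusted p of 0.112, and it passed without a filter (0.0188). Krt8 stood at 228, 183, 191 and 212 CPM after vehicle and at 151, 179.5, 159 and 189 CPM after ISRIB. These overlapped at vehicle 2 and ISRIB 4. The log2 fold change was -0.26 (SE 0.08, edgeR adjusted p 0.0883), and it passed without a filter (0.00102) and with DESeq2 (0.0369). The fit without a filter called 648 genes in all, against 265 with it. In it the log2 fold changes of Krt8 (-0.27) and Krt18 (-0.22) hardly moved, so it is a more liberal fit rather than separate support.

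The remaining 6 genes all had overlapping groups and no call by edgeR. On the log2 scale Krt7 differed by -0.16 (SE 0.07, adjusted p 0.297) and Lgals3 by -0.20 (SE 0.08, 0.23). Sfn was at 26.4 ± 3.19 and 25.9 ± 3.67 CPM, a log2 fold change of -0.03 (SE 0.10, 0.931). Tnfrsf12a was the 1 member with a positive log2 fold change, 0.26 (SE 0.14, 0.387). Ndrg1 (-0.33, SE 0.17, 0.355) and Plaur (-0.71, SE 0.46, 0.473) were the least abundant, the latter with 43 counts over the vehicle and 28 over the ISRIB libraries. ISRIB 1 had 0 of the 10 genes above the vehicle mean, ISRIB 2 and 3 had 1 each and ISRIB 4 had 3. In vehicle 1, 9 of the 10 were above it.

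The 2 comparisons share no library, and their values can be set side by side. Of the 9 genes tested in both, 7 had a negative log2 fold change after ISRIB and a positive one after bleomycin, namely the 4 keratins, Sfn, Lgals3 and Sprr1a. Sfn counts among them by a log2 fold change of -0.03, which was positive without vehicle 1 (0.035) or ISRIB 3 (0.037). Among all 10737 genes tested in both sets 26.4% did, and among the 1199 of these that were called higher after bleomycin 54.2% did. Krt19 and Sprr1a were called in both, at -0.40 and -0.70 after ISRIB and at 1.63 and 1.17 after bleomycin. Ndrg1 was negative in both, and Tnfrsf12a positive in both, without a call.

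The balance between the keratins was read from log2 ratios of counts within a library, which do not depend on scaling between libraries. The ratio of Krt19 to Krt18, the type I chains, was -2.44, -2.32, -1.84 and -2.32 in the naive and -1.28, -1.42, -1.65, -1.22 and -1.58 in the bleomycin libraries. Every bleomycin library was above every naive library. The mean difference was 0.80, a 1.74-fold shift, with an exact two-sided permutation p of 0.00794, the smallest that 5 against 4 libraries allow, and an adjusted p of 0.0635 over the 8 ratios tested. After ISRIB the same ratio was lower by 0.19 (mean -1.62 ± 0.10 to -1.80 ± 0.03, n = 4 each), without overlap. Its exact permutation p was 0.0286, the smallest that 4 against 4 allow, and 0.0794 adjusted. None of the 8 ratios passed after adjustment, and 4 had an exact permutation p under 0.05 before it, the others being Krt19 to Krt8 (difference 0.51, 0.0317) and Krt18 to Krt8 (-0.29, 0.0397) after bleomycin.

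Krt7 to Krt8, the type II chains, differed by 0.15 after bleomycin (exact permutation p 0.444) and by 0.10 after ISRIB (0.171). After ISRIB, Krt19 to Krt8 differed by -0.13 (exact permutation p 0.0857) and Krt18 to Krt8 by 0.05 (0.543). Per kilobase, Krt19 made up 8.82% ± 1.38 of the 4 keratins in the naive and 13.02% ± 1.77 in the bleomycin libraries (SD, n = 4 and 5), ranging from 7.84% to 10.9% and from 11.2% to 15.4%. The share of Krt18 was 45.3% ± 3.70 and 38.3% ± 1.33, and also did not overlap. After vehicle and ISRIB the Krt19 share was 12.8% ± 0.45 and 11.5% ± 0.15, likewise apart. Since 4 shares sum to a whole, they do not vary independently.

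**Figure D3:**
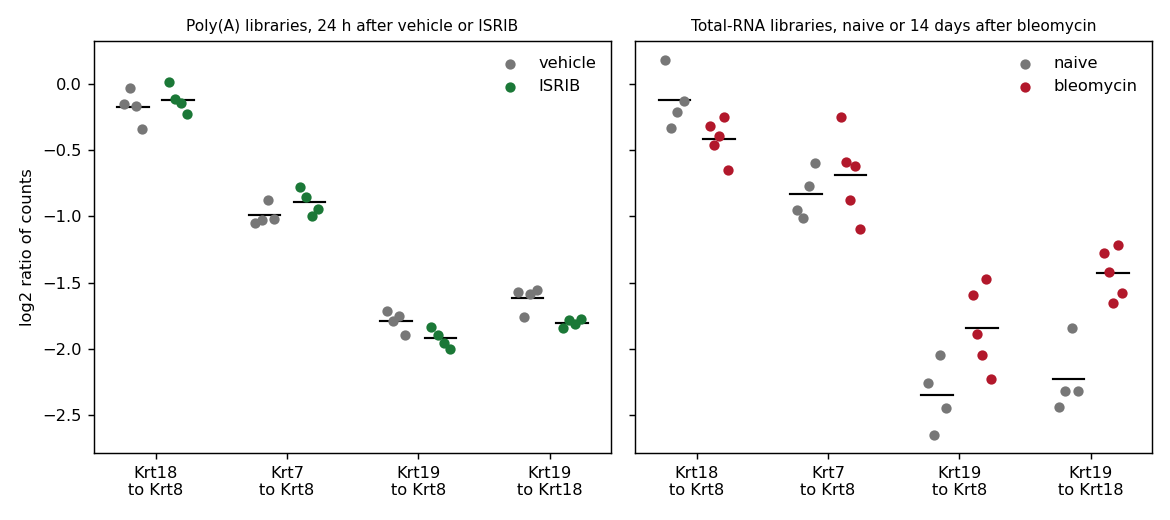
Log2 ratio of counts between 2 keratin genes, 1 point per library with a bar at the group mean, for vehicle and ISRIB (left) and naive and bleomycin (right). The bleomycin points of Krt19 to Krt18 lie from -1.65 to -1.22, all above the naive points, and the ISRIB points of that ratio all lie below the vehicle points.

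The 4 members were not the whole keratin family of these cells. Of 54 keratin genes in the tables, 23 had a count in the poly(A) and 43 in the total-RNA set, and 7 and 6 passed the filter. Krt8, Krt18, Krt19 and Krt7 took 79.1% to 83.0% of all keratin counts per poly(A) library and 76.7% to 93.9% per total-RNA library. The tables held 0 rows with a keratin pseudogene symbol such as Krt8-ps, and pseudogenes under other names were not searched for.

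Most of the remainder was Krt23, a type I keratin (chromosome 11, 99477974 to 99493137), which with Krt80 and Krt10 is named here after its values were seen. Krt23 stood at 104, 82.3, 94.0 and 91.2 CPM in the naive and at 30.9, 61.0, 68.9, 65.6 and 64.5 CPM in the bleomycin libraries. The bleomycin libraries were all lower, opposite to the 4 members. Krt23 fell by 0.67 on the log2 scale (SE 0.17, edgeR adjusted p 0.0108). After ISRIB it fell too, from 107.6 ± 3.90 to 91.3 ± 4.10 CPM without overlap, by 0.24 (SE 0.05, edgeR adjusted p 0.029), a call lost on leaving out any one vehicle library, ISRIB 2 or ISRIB 4 (adjusted p 0.0517 to 0.103).

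The type II keratin Krt80 rose after bleomycin, from 9.61 ± 1.92 to 16.7 ± 2.93 CPM without overlap, by 0.80 (SE 0.23, edgeR adjusted p 0.019). That call was lost without naive 2 (0.0794) or naive 3 (0.0579). After ISRIB its log2 fold change was 0.12 (edgeR adjusted p 0.691). Krt10, a keratin of differentiated skin, was near 4 CPM after vehicle and ISRIB alike (log2 fold change 0.07, edgeR adjusted p 0.893) and was below the filter in the total-RNA set.

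**Figure D4:**
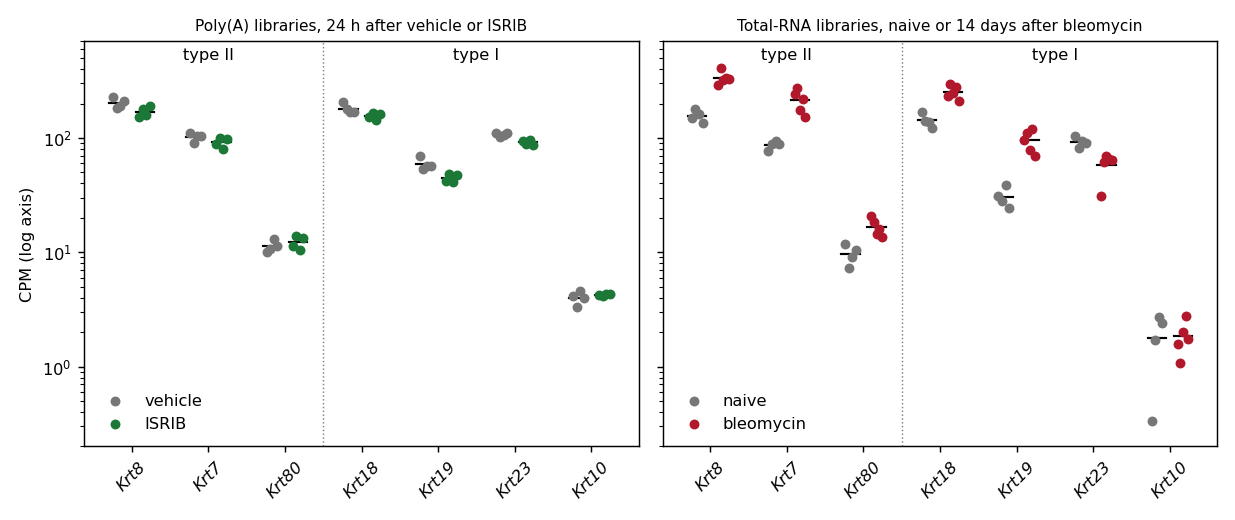
Level in CPM on a log axis of the 7 keratin genes that passed the filter in the poly(A) set, type II to the left and type I to the right of the dotted line, 1 point per library with a bar at the group mean. Krt23 is the keratin whose bleomycin points all lie below its naive points, and Krt10 was not tested in the total-RNA set.

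Most other genes linked to the transitional state were called higher after bleomycin. Of 25 listed, 20 were tested in each comparison. After bleomycin 16 were called higher and 1 lower, beside 11.2% and 9.31% of all genes tested, with a median log2 fold change of 1.66. DESeq2 called 16 higher and 1 lower, and limma-voom 13 and 1. Among the 16 were Cldn4 and Ccn2, with 8 counts each over the naive libraries, Tm4sf1 with 31, Tnip3 with 39 and Phlda3 with 21. These passed the filter through the bleomycin libraries, which raises both the count and the median. The secreted chaperone gene Clu rose from 103 ± 4.32 to 466 ± 61.4 CPM, by 2.18 (SE 0.12, edgeR adjusted p 6.92e-09). Cdkn1a, the p53-induced cell cycle inhibitor, rose by 2.29 (SE 0.21, edgeR adjusted p 9.95e-07), and the matricellular gene Ccn1 by 2.90 (SE 0.32, 4.82e-06). The stress-induced Nupr1 fell from 172 ± 22.8 to 97.4 ± 24.1 CPM, by 0.82 (SE 0.16, edgeR adjusted p 0.00119).

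After ISRIB 0 of these 20 were called higher and 1 lower by edgeR, with a median of -0.05. Of all genes tested after ISRIB, 1.1% were called higher and 1.1% lower. These shares also stand beside the ISRIB counts of the lists that follow. At an unadjusted p under 0.05 there were 3 in each direction, DESeq2 called 0 higher and 2 lower, and limma-voom 0 and 1; without vehicle 2 edgeR called 2. That one was Hbegf, an EGF receptor ligand, which fell from 14.8 ± 0.54 to 9.55 ± 1.10 CPM, by 0.64 (SE 0.11, edgeR adjusted p 0.00677), without overlap. After bleomycin Hbegf, listed here for its ISRIB call, rose from 7.67 ± 1.82 to 31.9 ± 6.96 CPM, a log2 fold change of 2.06 (SE 0.23, edgeR adjusted p 6.06e-06). Hbegf thus had calls in both comparisons with the signs that Krt19 and Sprr1a had.

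Keratin filaments are tied to desmosomes and to the rest of the cytoskeleton by plakins, plakoglobin and plakophilins. Of 12 such genes listed, 9 were tested, and after bleomycin 4 were called higher and 1 lower, beside 11.2% and 9.31% of all genes tested, with a median of 0.05. The desmosomal cadherin Dsg2 rose by 0.87 (SE 0.19, edgeR adjusted p 0.00316), envoplakin Evpl by 1.04 (SE 0.26, 0.00796) and plectin Plec by 0.50 (SE 0.11, 0.00329). Jup (plakoglobin), named after its values were seen, rose by 0.40 (SE 0.11, edgeR adjusted p 0.0131), and its call was lost without naive 3 (0.0589) or naive 4 (0.0572). Periplakin, encoded by Ppl and named after its values were seen, fell by 0.42 (SE 0.13, 0.0235) with overlapping groups, a call lost without naive 1 (0.0679), naive 4 (0.0878) or bleomycin 3 (0.0592). Without naive 4, 3 of these genes were called in all. After ISRIB the single call of the 9 was Perp, a desmosomal membrane protein, which fell by 0.43 (SE 0.10, edgeR adjusted p 0.0271), and the median was -0.02. The call of Perp was lost without vehicle 1, 2 or 4 or ISRIB 2 or 4 (adjusted p 0.0538 to 0.1), and at an unadjusted p under 0.05 there were 1 higher and 2 lower, with 0 higher and 1 lower by DESeq2 and by limma-voom.

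The partners of the 2 receptors were read from lists of their pathways. Of 10 genes of plasminogen activation, which Plaur serves, 2 passed the filter in each comparison. The protease gene Plau, whose product binds the Plaur product, had 7 counts over the naive and 49 over the bleomycin libraries, 22 of them in bleomycin 2. In CPM these groups overlapped (0 to 1.19 and 0.26 to 4.33). With no filter the edgeR adjusted p of Plau was 0.164, so a difference was not detectable. The urokinase inhibitor Serpine2 rose after bleomycin by 0.86 (SE 0.14, edgeR adjusted p 0.000199). After ISRIB Serpine2, named there after its values were seen, was called lower by 0.34 (SE 0.08, edgeR adjusted p 0.0335) with overlapping groups, a call lost without vehicle 1, 2 or 4 or ISRIB 2 or 4 (0.0733 to 0.12). The medians of the 2 tested genes were 0.13 after bleomycin and -0.20 after ISRIB.

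Of 10 genes of the TWEAK pathway 9 were tested in each comparison. The ligand gene Tnfsf12 had a log2 fold change of -0.50 after bleomycin (SE 0.57, edgeR adjusted p 0.581) and of 0.01 after ISRIB (SE 0.21, 0.985). After bleomycin 2 genes were called higher and 1 lower, beside 11.2% and 9.31% of all genes tested, with a median of -0.19. Nfkb2, a subunit of the noncanonical NF-kappaB pathway that the receptor engages, rose by 0.51 (SE 0.16, edgeR adjusted p 0.027), a call lost without naive 1 (0.109), naive 2 (0.0515) or naive 4 (0.0746). The adaptor gene Traf3, named after its values were seen, was called higher by 0.78 (SE 0.20, 0.00904) with overlapping groups. Traf1, another adaptor, fell from 70.4 ± 11.3 to 27.9 ± 6.58 CPM, by 1.33 (SE 0.17, edgeR adjusted p 2.87e-05). After ISRIB edgeR called 0 of the 9, with a median of 0.00, while 0 higher and 2 lower had an unadjusted p under 0.05; DESeq2 called 1 lower and limma-voom 0, and without ISRIB 4 edgeR called 1.

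Relatives of the other members were measured as well. Of the 6 further 14-3-3 genes, 5 were called higher after bleomycin and 0 lower, beside 11.2% and 9.31% of all genes tested, with a median of 0.46. The log2 fold change was 0.71 for Ywhah (SE 0.13, edgeR adjusted p 0.000846), 0.49 for Ywhae (SE 0.11, 0.00527) and 0.44 for Ywhab (SE 0.12, 0.016), the 3 with the lowest p among those without overlap. Without naive 4 the count fell to 2 and the call of Ywhab was lost (0.0811). After ISRIB edgeR called 0 of the 6, with a median of -0.03; 1 had an unadjusted p under 0.05, and DESeq2 called 1 higher and limma-voom 0. Sfn, at 1.04 after bleomycin and -0.03 after ISRIB, had the largest log2 fold change of the 7 after bleomycin.

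Among galectins and their ligand, 4 of 8 were tested after bleomycin, with 2 called higher and 1 lower, beside 11.2% and 9.31% of all genes tested, and a median of 0.20. Lgals3bp, which encodes a glycoprotein bound by galectin-3, rose from 7.39 ± 1.19 to 36.5 ± 17.6 CPM, by 2.32 (SE 0.30, edgeR adjusted p 2.87e-05). Lgals9 rose by 0.48 (SE 0.16, edgeR adjusted p 0.0408), and Lgals4, named after its values were seen, was called lower by 1.88 (SE 0.65, 0.0438) with overlapping groups and 93 and 50 counts. The call of Lgals9 was lost with limma-voom (0.0547) and without any one naive library, bleomycin 2 or bleomycin 3 (adjusted p 0.0649 to 0.156), with log2 fold changes of 0.37 to 0.53. That of Lgals4 was lost without any one naive library, bleomycin 1, 2 or 5 (0.0565 to 0.132), with log2 fold changes of -2.08 to -1.60. After ISRIB 0 of 5 were called by edgeR, DESeq2 or limma-voom, and 0 had an unadjusted p under 0.05, with a median of 0.25.

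Sprr1a was the small proline-rich gene these cells held: it took 1172 counts in the poly(A) and 595 in the total-RNA libraries, and the other 14 Sprr genes together took 1 and 5. Of 18 cornified envelope genes listed, 2 passed the filter after bleomycin and 3 after ISRIB. The transglutaminase gene Tgm1, whose enzyme cross-links envelope precursors, rose after bleomycin from 14.1 ± 3.68 to 41.0 ± 3.67 CPM, by 1.53 (SE 0.18, edgeR adjusted p 1.46e-05), and the median of the 2 was 0.67. After ISRIB 0 of the 3 were called by edgeR, DESeq2 or limma-voom or had an unadjusted p under 0.05, with a median of -0.22. Of the NDRG family, Ndrg3 was the 1 relative tested after bleomycin (0.05, SE 0.20, edgeR adjusted p 0.888), and 0 of 2 were called after ISRIB by edgeR, DESeq2 or limma-voom, with 1 at an unadjusted p under 0.05 and a median of 0.21.

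The genes whose pattern over the 9 total-RNA libraries was most like that of a member were found by the mean absolute difference in log2 CPM relative to the naive mean, over 9309 genes. For Krt8 they included Isyna1 (0.049) and Actb (0.097), which encode inositol-3-phosphate synthase and beta-actin. For Krt19 they were Crim1 (0.160), Ctps (0.161) and Per2 (0.186). For Lgals3 they were Nudcd2 (0.149), Mettl9 (0.156) and Cops6 (0.162). Between members the closest pair was Krt8 and Krt7 (0.217). Krt8 and Sprr1a (0.222), Krt18 and Sprr1a (0.225) and Krt18 and Lgals3 (0.227) came next. Krt8 and its partner Krt18 followed at 0.229.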

How the data were processed

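Values were read counts per gene in 2 tables deposited by the authors, 1 for the poly(A) and 1 for the total-RNA libraries. Per the submitters' processing notes, bcl2fastq 2.19.1, FastQC, Trimmomatic 0.36, STAR 2.6.0 and HTSeq 0.11.2 were used with mm10; neither annotation nor strand setting is given in the sources used here. No column lacked a sample. Symbols for 42546 of 43430 identifiers, positions and lengths of the principal transcript came from GENCODE M21, and upstream windows from RefSeq.

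Genes passing filterByExpr (at least 10 counts, total at least 15) were scaled with TMM and tested two-sided for an effect of group with the quasi-likelihood test of edgeR (4.0.16, under R 4.3.3); an SE is the log2 fold change over the square root of F. DESeq2 1.42.0, limma-voom 3.58.1, DESeq2 size factors, no filter, a replicate block and leaving out each library were alternatives. Keratin ratios had 0.5 added to each count. The procedure was tested on simulated data: with nothing changed it made 2 calls (ISRIB) and 1 (bleomycin). Depth limits low genes most.

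The members, the 8 lists of related genes, the 9 marker lists and the alternatives were chosen with earlier results of these data known. Named were the members, Plau and Tnfsf12, up to 3 called genes per list and direction whose groups did not overlap, taken by lowest p, and the 3 genes most like Krt8, Krt19 and Lgals3 among genes with a mean of at least 5 CPM. Some genes that this rule names are not reported here.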

Additional observations from a re-analysis of the deposited data

Results flagged for a closer look

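In 56 groups of 4 or 5 libraries, the values of the 10 genes and of the keratin ratios were searched for a library far from the others of its group, and 3 were found; chance gives about 1 in 20 groups. In vehicle 2 the log2 ratio of Krt19 to Krt18 was -1.76, below the next vehicle library at -1.59. In ISRIB 4 Lgals3 stood at 50.9 CPM, above the next ISRIB library at 44.6 CPM and within the vehicle range. In naive 4 Ndrg1 stood at 8.64 CPM, above the next naive library at 4.80 CPM.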

How the results depend on the processing

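Of the members' values under the alternatives, 118 of 129 after ISRIB and 120 of 126 after bleomycin kept their direction and their side of the threshold. The count of genes called after ISRIB, 265, was 648 without a filter, 408 with DESeq2 and 86 to 269 with a library left out (86 without vehicle 1, 102 without vehicle 2, 159 without ISRIB 4). Members called after ISRIB, 2, were 4 without a filter and 0 to 2 with a library left out. After bleomycin 2304 genes were called (1554 to 2584 with a library left out), with 6 to 8 members.

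For related genes after ISRIB, no filter gave 5 transitional-state, 3 anchor, 1 TWEAK and 1 14-3-3 gene; DESeq2 gave 2, 1, 1 and 1. Leaving out a library gave 1 to 2 transitional-state, 0 to 1 anchor, 0 to 1 plasminogen and 0 to 1 TWEAK gene. After bleomycin it gave 2 to 5 14-3-3 genes, 1 to 3 galectins, 3 to 5 anchor genes and 1 to 2 plasminogen genes, the last being 2 without a filter.

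With a library left out, small changes crossed 0. The log2 fold change of Sfn after ISRIB ran from -0.12 to 0.037 (0.035 without vehicle 1), that of Krt10 from -0.0030 to 0.15, that of Tnfsf12 from -0.17 to 0.18 (-0.08 without vehicle 2, -0.022 with limma-voom) and that of Ndrg3 after bleomycin from -0.065 (without naive 3) to 0.17. The ratio of Krt18 to Krt8 after ISRIB ran from -0.0032 to 0.10. The cause of these shifts was not tested.

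Same-numbered libraries did not deviate together (correlations -0.11 to 0.08 after ISRIB and -0.04 to 0.05 after bleomycin; 1 of 4 and 0 of 4 numbers matched best with their own). With the replicate number as a block, 277 genes were called after ISRIB and 2187 after bleomycin, with 2 and 7 members, 3 transitional-state genes after ISRIB and 2 plasminogen genes after bleomycin; the bleomycin calls of Nfkb2 (adjusted p 0.0545) and Nudcd2 (0.0542) were lost, leaving 2 TWEAK genes.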
